A study of Mus musculus with 6 samples.

Results

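Nkx2-1, Foxa1, Foxa2, Foxa3, Gata6, Prox1, Elf3 and Spdef encode transcription factors of lung and other endoderm epithelium, and Scgb1a1 encodes the main secreted protein of airway club cells. These 9 genes were taken by symbol from the 23361 symbols of an expression table of small-cell lung cancer (SCLC) cells of the mouse, and all 9 were found. With TAZ4SA, an active mutant of the co-activator TAZ, Nkx2-1, Foxa1, Foxa2, Prox1 and Elf3 were lower in every library than in every control library, Scgb1a1 was listed at 0, and Gata6 was higher. Foxa3 and Spdef were close to 0 in both groups.

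SMC, the SCLC metastasizing cell, is the NCAM-high, CD44-low or CD44-negative population sorted from lung tumours of Rb1L/L, Trp53L/L mice of mixed background (C57Bl/6, Balb-c and S129), in which an intratracheal adenovirus carried Cre under the CMV promoter. All libraries came from SMC kept in culture and thus share the loss of both tumour suppressors. SMC-Ctrl (3 libraries) received the control virus and SMC-TAZ4SA (3 libraries) a virus with TAZ4SA, and infected cells were selected with puromycin. Whether the line was a single clone, and whether the replicates were separate cultures, is not given in the sources used here, so the p-values cover only how far these libraries differ, and that spread may be technical. Titles and design text give the groups as above, whereas the data statement of the study lists the deposit as SMC and non-SMC, the CD44-high tumour cells, and this difference between the sources was not resolved.

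NKX2-1 is the homeodomain factor that marks the lung and thyroid part of the foregut endoderm, and it drives surfactant and club cell genes. FOXA1 and FOXA2 are forkhead factors that bind closed chromatin ahead of other factors, and FOXA3 is their relative in liver and gut. GATA6 is a zinc finger factor of endoderm and of alveolar differentiation, PROX1 a homeodomain factor of neuronal, hepatic and lymphatic cells, and ELF3 and SPDEF are ETS factors of epithelial and of mucus cells. TAZ itself is known as a co-activator of NKX2-1 at surfactant genes in lung, beside its role with TEAD factors.

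The labels were checked with Wwtr1, the gene of TAZ, which lay between 0.105 and 0.162 FPKM (fragments scaled by transcript length and by all mapped fragments) in SMC-Ctrl and between 31.7 and 36.0 FPKM in SMC-TAZ4SA. Reads of the construct and of the cells' own gene cannot be told apart here. The study also reports lower Taz and higher neuroendocrine genes in SMC than in non-SMC. These genes thus show that the groups were not swapped, but cannot decide between TAZ4SA and non-SMC as the second group. The 10 neuroendocrine markers summed to 1405 to 1476 FPKM in SMC-Ctrl and to 2.547 to 3.802 FPKM in SMC-TAZ4SA, so these markers were seen in the controls and hardly in SMC-TAZ4SA. Chga, a granule protein gene, fell from 94.2 ± 2.25 to 0.329 ± 0.163 FPKM, and Vim, the intermediate filament gene of mesenchymal cells, rose from 0.025 ± 0.0234 to 1442 ± 152 FPKM (SD, n = 3). Of the markers that define SMC, Cd44 rose to 76.4 ± 2.24 FPKM, whereas Ncam1 did not fall with the neuroendocrine genes but rose, from 21.4 ± 1.18 to 78.5 ± 4.97 FPKM (SD, n = 3). By western blot the study reports less NCAM protein in SMC with TAZ4SA, and it defines non-SMC as NCAM-low. The Ncam1 transcript here thus went opposite to the protein under either label of the second group, and the reason was not tested. FPKM totals were 284422 to 297034 in SMC-Ctrl and 324938 to 361800 in SMC-TAZ4SA, and the relative depth, read from the steps of low values, was 0.968 to 1.09 and 0.713 to 0.96. The absolute depth is unknown. Pearson's r of log2 values across tested genes, which are not independent replicates, was 0.99 to 0.997 within and 0.654 to 0.664 between groups.

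Of the 9 genes, 7 had 1 FPKM or more in 3 or more of the 6 libraries and were tested with limma on log2(FPKM + 1), with p-values adjusted after Benjamini and Hochberg across the 12141 genes tested and called at 0.05. Of the 5 that reached 1 FPKM in both groups, 4 were lower and 1 was higher in SMC-TAZ4SA, against a background of 80.3% of all tested genes called in either direction, 39.7% lower and 40.7% higher. Prox1 and Scgb1a1 passed the filter through SMC-Ctrl only and could not have been called higher. The groups did not overlap for any of the 7 tested genes, against 82.4% of all tested genes without overlap. A call by itself thus sets none of these genes apart, and the size of each change is given instead. A fall of at least 1 on the log2 scale was called for 16.7% of tested genes and a rise of at least 1 for 15.5%.

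**Figure D1:**
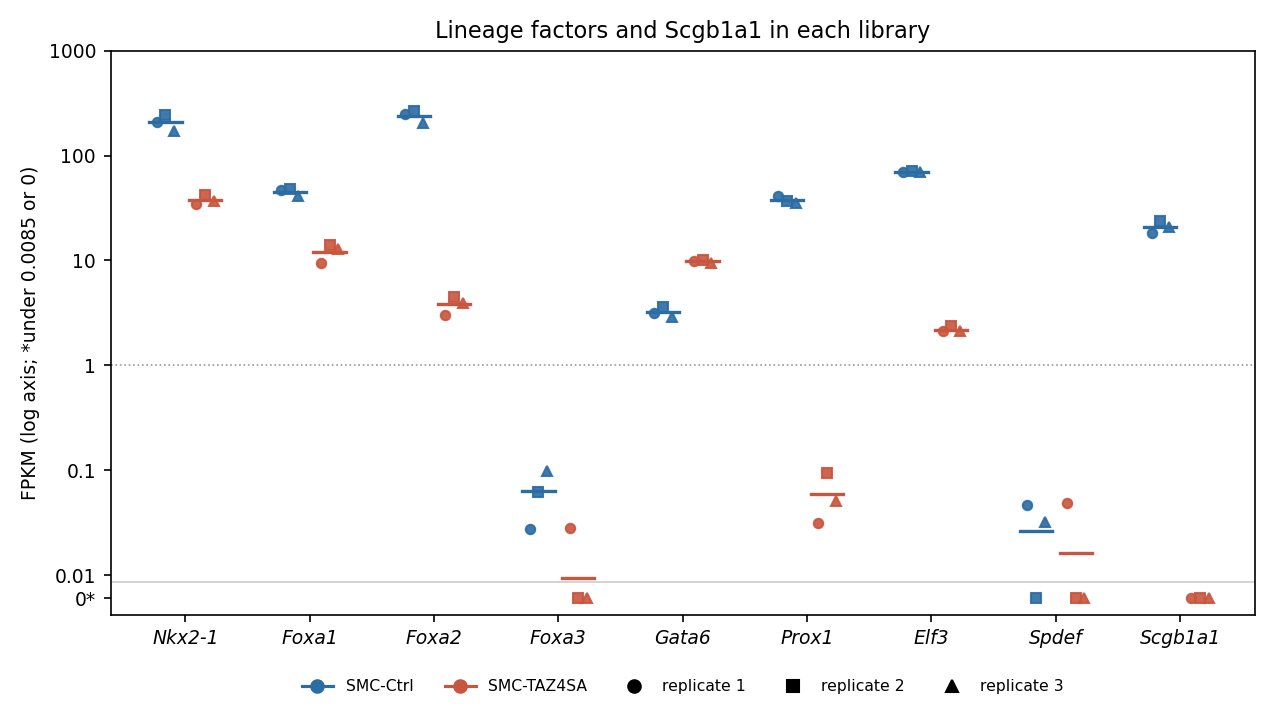
FPKM (log axis) of the 9 genes in each library, with a horizontal bar at the group mean (n = 3), replicates told apart by symbol, values of 0 drawn at the bottom and a dotted line at 1 FPKM. Foxa2 and Nkx2-1 lead the controls, Nkx2-1 leads SMC-TAZ4SA, and Gata6 alone is higher there.

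The start regions of the 5 factor genes that fell are shown because these genes moved in the same direction. RefSeq promoters on GRCm38.p6, the assembly of mm10, were at hand for 7 of the 9 genes, with Gata6 and Scgb1a1 unmatched, and the 250 bases before the outermost RefSeq start are given 5′ to 3′ on the strand of the gene (the minus strand for all 5). Capitals mark matches, on either strand, to 5 short motifs: GGAATG of TEAD factors, TGTTTAC of forkhead factors, CAAGTG of NK2 homeodomain factors, AGATAA of GATA factors and GGAAGT of ETS factors.
Nkx2-1 (chr12:56536909-56537158): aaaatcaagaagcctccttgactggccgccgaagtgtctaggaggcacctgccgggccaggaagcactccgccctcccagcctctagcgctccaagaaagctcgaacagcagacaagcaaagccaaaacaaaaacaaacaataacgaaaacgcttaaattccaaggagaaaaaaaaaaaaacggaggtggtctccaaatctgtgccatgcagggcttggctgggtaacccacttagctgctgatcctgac
Foxa2 (chr2:148046970-148047219): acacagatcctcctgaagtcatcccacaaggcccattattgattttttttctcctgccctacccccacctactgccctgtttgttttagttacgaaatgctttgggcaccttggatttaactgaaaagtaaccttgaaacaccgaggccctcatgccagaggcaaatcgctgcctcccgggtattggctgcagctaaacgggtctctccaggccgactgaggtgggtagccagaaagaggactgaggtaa
Foxa1 (chr12:57546112-57546361): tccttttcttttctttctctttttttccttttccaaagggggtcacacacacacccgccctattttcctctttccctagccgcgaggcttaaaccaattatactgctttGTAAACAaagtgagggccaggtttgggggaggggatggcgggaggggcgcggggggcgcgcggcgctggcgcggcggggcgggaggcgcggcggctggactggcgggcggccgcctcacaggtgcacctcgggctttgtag
Elf3 (chr1:135258473-135258722): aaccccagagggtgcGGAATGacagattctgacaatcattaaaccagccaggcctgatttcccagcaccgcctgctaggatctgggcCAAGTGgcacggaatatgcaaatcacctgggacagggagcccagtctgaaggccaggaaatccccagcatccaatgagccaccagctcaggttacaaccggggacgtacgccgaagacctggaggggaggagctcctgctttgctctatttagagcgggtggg
Prox1 (chr1:190170828-190171077): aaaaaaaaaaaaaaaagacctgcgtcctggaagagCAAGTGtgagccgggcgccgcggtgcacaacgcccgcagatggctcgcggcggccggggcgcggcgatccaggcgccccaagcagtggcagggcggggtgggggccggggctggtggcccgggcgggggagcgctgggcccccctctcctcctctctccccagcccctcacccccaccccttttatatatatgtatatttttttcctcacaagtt
All distances are from the RefSeq start. This start differs from the GENCODE gene spans printed below for some genes. The Foxa1 window lies wholly within the GENCODE span of Foxa1, and the Elf3 window partly within that of Elf3. The Foxa1 window held a forkhead match 141 bases before the RefSeq start, a motif found in 3.17% of all 32851 promoter windows. Elf3 held a TEAD match at 235 bases and an NK2 match at 163 bases before the start, and Prox1 an NK2 match at 215 bases. The TEAD letters occurred in 12.6% and the NK2 letters in 11.6% of all windows. The Nkx2-1 and outer Foxa2 windows held none of the 5 motifs, while the inner Foxa2 starts held ETS matches (at 144 and 113 bases, 19.7% of all windows) and a GATA match (at 183 bases, 9.99%). GGAATG and GGAAGT share their first letters, but no matches overlapped here. GC content was 50.8% for Nkx2-1 and outermost Foxa2, 57.2% for Elf3, 62.0% for Foxa1 and 64.8% for Prox1, with a median of 52.4% over all windows. A match describes letters and not a bound site.

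Nkx2-1 (chromosome 12, 56531958 to 56536908 of GRCm38) stood at 211, 244 and 171 FPKM in SMC-Ctrl replicates 1 to 3 and at 34.4, 42.5 and 36.55 FPKM in SMC-TAZ4SA. The lowest control was 4.03 times the highest SMC-TAZ4SA library, so the groups were well apart, yet every SMC-TAZ4SA library kept a clear level of the gene. The log2 fold change was −2.42 (SE 0.136, adjusted p = 7.57e-07 by limma), and the ratio of the means was 5.52. Among the 23107 symbols that stood on a single line, Nkx2-1 had rank 124 by mean level in SMC-Ctrl and rank 2074 in SMC-TAZ4SA, where it was the most abundant of the 9 genes. In the annotation Nkx2-1 overlaps the antisense gene Gm26973, whose symbol was not used here, and without a stated strand setting their reads cannot be told apart.

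The FOXA factors fell unequally. Foxa2 (chromosome 2, 148042877 to 148046969), which is known from mouse lung for its part in branching and airway differentiation, stood at 249, 266 and 205 FPKM in SMC-Ctrl and at 2.996, 4.53 and 3.96 FPKM in SMC-TAZ4SA. Among those of the 9 genes with at least 1 FPKM in both groups, its groups were the widest apart, with a ratio of means of 62.7 and at least 45.3 for any pair of libraries. The log2 fold change was −5.65 (SE 0.138, adjusted p = 4.6e-09 by limma), the rank 20 from the most negative of 12141 tested genes.

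Foxa1 (chromosome 12, 57540628 to 57546916), the close relative with which Foxa2 acts redundantly in mouse lung, stood at 46.8, 47.7 and 40.9 FPKM in SMC-Ctrl and at 9.36, 14.0 and 12.9 FPKM in SMC-TAZ4SA. The groups did not overlap, and the ratio of means was 3.73 (log2 fold change −1.83, SE 0.138, adjusted p = 4.97e-06 by limma). Its rank from the most negative was 930, so its fall was of a size shared by many genes. Foxa3 (chromosome 7, 19013284 to 19023538), the hepatic relative, was at 0.0272, 0.0625 and 0.0984 FPKM in SMC-Ctrl and at 0.0283, 0 and 0 FPKM in SMC-TAZ4SA. These values overlapped, they are near the lowest that the table holds, and no difference was detectable (exact 2-sided permutation p = 0.2, n = 3 per group).

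FPKM is per length, so the 3 FOXA levels can be added. Their sum was 296, 314 and 246 FPKM in SMC-Ctrl and 12.4, 18.6 and 16.9 FPKM in SMC-TAZ4SA. Foxa2 made up 83.3% to 84.8% of the sum in SMC-Ctrl and 23.4% to 24.4% in SMC-TAZ4SA, and Foxa1 went from 15.2% to 16.6% of the sum to 75.6% to 76.6%. The order of the FOXA genes was thus turned round, with Foxa2 first in each control and Foxa1 first in each SMC-TAZ4SA library. The log2 ratio of Foxa2 to Foxa1 (1 FPKM added to each) was 2.38 ± 0.0784 in SMC-Ctrl and −1.44 ± 0.0584 in SMC-TAZ4SA (SD, n = 3), which differ by −3.81. By an exact 2-sided permutation test p was 0.1, also after adjustment over the 3 ratios compared, and 3 against 3 libraries allow none smaller.

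**Figure D2:**
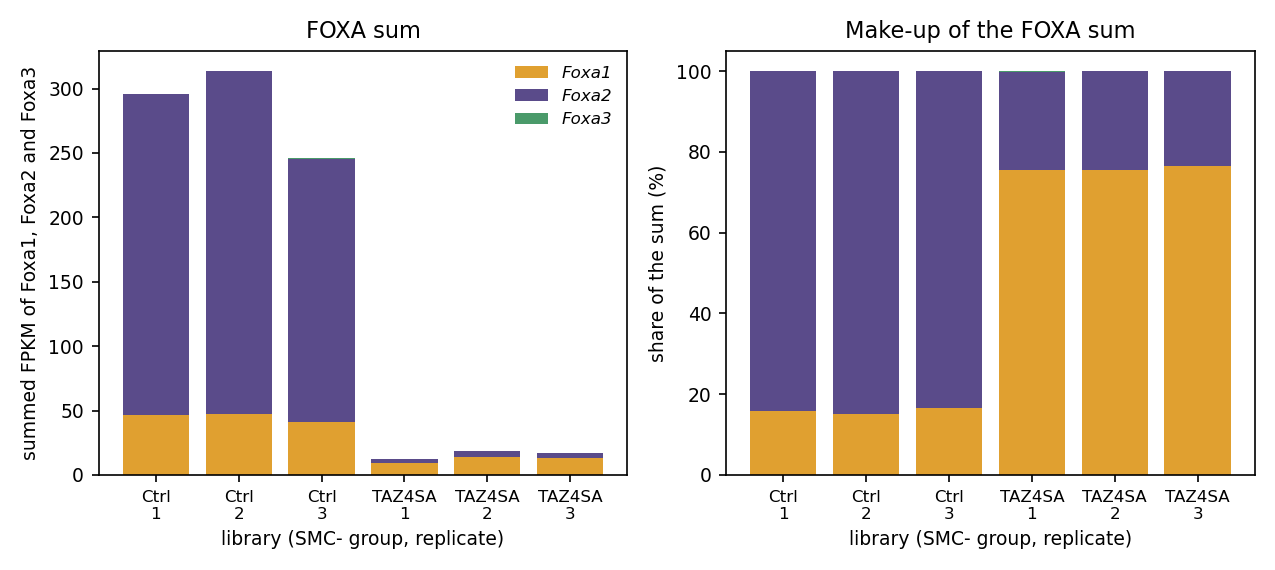
Left, summed FPKM of Foxa1, Foxa2 and Foxa3 in each library, and right, the share of each gene in that sum (%), for 3 libraries a group. The sum falls from 246 to 314 FPKM to 12.4 to 18.6 FPKM, and Foxa1 takes over as the larger share.

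Foxa2 also fell by more than Nkx2-1. Their log2 ratio was close to 0 in the controls (0.21 ± 0.0714) and −3.02 ± 0.117 in SMC-TAZ4SA, a difference of −3.22 (exact 2-sided permutation p = 0.1, n = 3 per group). For Prox1 against Nkx2-1 the log2 ratio went from −2.43 ± 0.238 to −5.19 ± 0.111, a difference of −2.76 with the same p, and since Prox1 was near 0 in SMC-TAZ4SA this difference rested on the amount added, with −5.45 when 0.1 FPKM and −6.73 when 0.01 FPKM was added. In all 3 ratios the libraries of the groups did not overlap.

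Prox1 (chromosome 1, 190118035 to 190170714), known in SCLC as a factor of the neuroendocrine state, stood at 40.9, 36.5 and 35.0 FPKM in SMC-Ctrl and at 0.0317, 0.0935 and 0.0512 FPKM in SMC-TAZ4SA. Every SMC-TAZ4SA library was below 0.1 FPKM, and the lowest control was 375 times the highest of them. The log2 fold change was −5.18 (SE 0.0735, adjusted p = 3.55e-10 by limma), which the added 1 FPKM holds down, and it was −9.19 with 0.01 FPKM added. Lymphatic endothelium is another cell type in which PROX1 is well known. Of its 8 listed genes, 7 were in the table and 2 were tested, both through SMC-TAZ4SA only, so that they could not have been called lower. These were Flt4 at 2.78 ± 0.321 FPKM and Pdpn, also a marker of alveolar type 1 cells, at 7.18 ± 0.454 FPKM in SMC-TAZ4SA, while Lyve1 was at or below 0.0212 FPKM. Below the filter, Reln and Pecam1 of the same list had means of 0.333 and 0.101 FPKM in SMC-Ctrl and of 0.00477 and 0.0330 FPKM in SMC-TAZ4SA. Prox1 overlaps the antisense genes Prox1os and Gm28172, which were not used here.

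Elf3 (chromosome 1, 135253575 to 135258568), a factor of epithelial differentiation, stood at 69.2, 71.4 and 70.2 FPKM in SMC-Ctrl and at 2.11, 2.36 and 2.12 FPKM in SMC-TAZ4SA. The ratio of means was 32.0 (log2 fold change −4.48, SE 0.0589, adjusted p = 2.92e-10 by limma), with rank 76 from the most negative. Its relative Ehf, also an ETS gene of epithelium, stood at 12.8, 12.6 and 13.2 FPKM in SMC-Ctrl and at 0.440, 0.492 and 0.392 FPKM in SMC-TAZ4SA (log2 fold change −3.27, adjusted p = 8.6e-10 by limma), and passed the filter through SMC-Ctrl only. Elf5, another of these ETS genes, stayed at or below 0.123 FPKM. Spdef (chromosome 17, 27714352 to 27728955), the ETS factor of mucus cells, was at 0.0468, 0 and 0.0322 FPKM in SMC-Ctrl and at 0.0485, 0 and 0 FPKM in SMC-TAZ4SA, with no detectable difference (exact 2-sided permutation p = 1.0, n = 3 per group). Elf3 overlaps the antisense gene Gm26642, not used here.

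Gata6 (chromosome 18, 11052064 to 11085635) went the other way. It stood at 3.13, 3.61 and 2.86 FPKM in SMC-Ctrl and at 9.98, 10.02 and 9.41 FPKM in SMC-TAZ4SA. Every SMC-TAZ4SA library was at least 2.61 times the highest control, and the ratio of means was 3.06 (log2 fold change 1.37, SE 0.0781, adjusted p = 8.4e-07 by limma). It was the only rise among the 9 genes, and its rank from the most positive was 1280. Its relative Gata4, of heart and gut endoderm, was at 0, 0.00692 and 0 FPKM in SMC-Ctrl and at 1.61, 1.77 and 1.55 FPKM in SMC-TAZ4SA. Gata4 was called higher (adjusted p = 4.47e-08 by limma) but passed the filter through SMC-TAZ4SA only, and Gata1 and Gata5 were listed at 0 throughout. Gata6 overlaps 1010001N08Rik on the other strand, which was not used here.

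Scgb1a1 (chromosome 19, 9083636 to 9087958) stood at 18.1, 23.8 and 21.1 FPKM in SMC-Ctrl and was listed at 0 in all SMC-TAZ4SA libraries, so no fold is given. It was called lower (adjusted p = 2.14e-09 by limma). A value of exactly 0 in this table can be a failed estimate, since the ribosomal protein gene Rps12 was at 0 in every library. Other club cell genes fell in part. Cyp2f2, a cytochrome P450 of club cells, stood at 9.41, 11.02 and 12.5 FPKM and Upk3a at 3.90, 4.12 and 4.60 FPKM in SMC-Ctrl, and both were listed at 0 in SMC-TAZ4SA. Aldh1a1, a retinaldehyde dehydrogenase, kept 4.59 ± 0.344 of 22.2 ± 1.28 FPKM, and Cbr2, a carbonyl reductase, was at 20.6 ± 3.17 and 22.6 ± 4.83 FPKM (SD, n = 3), a difference that missed the threshold (log2 fold change 0.12, adjusted p = 0.501 by limma). In this list of 10 genes, which includes Scgb1a1 itself, 5 were tested and 4 were lower, against 39.7% of all tested genes lower. The median log2 fold change was −2.38 (which depends on the added 1 FPKM for genes listed at 0) against 0.02 over the 12141 genes. Of these 5, 3 (Scgb1a1 among them) passed the filter through SMC-Ctrl only and could not have been called higher. Scgb3a1 and Scgb3a2, the other secretoglobins listed, were at 0.434 to 0.867 and 0.740 to 1.15 FPKM in SMC-Ctrl, at 0 with TAZ4SA, and were below the filter.

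**Figure D3:**
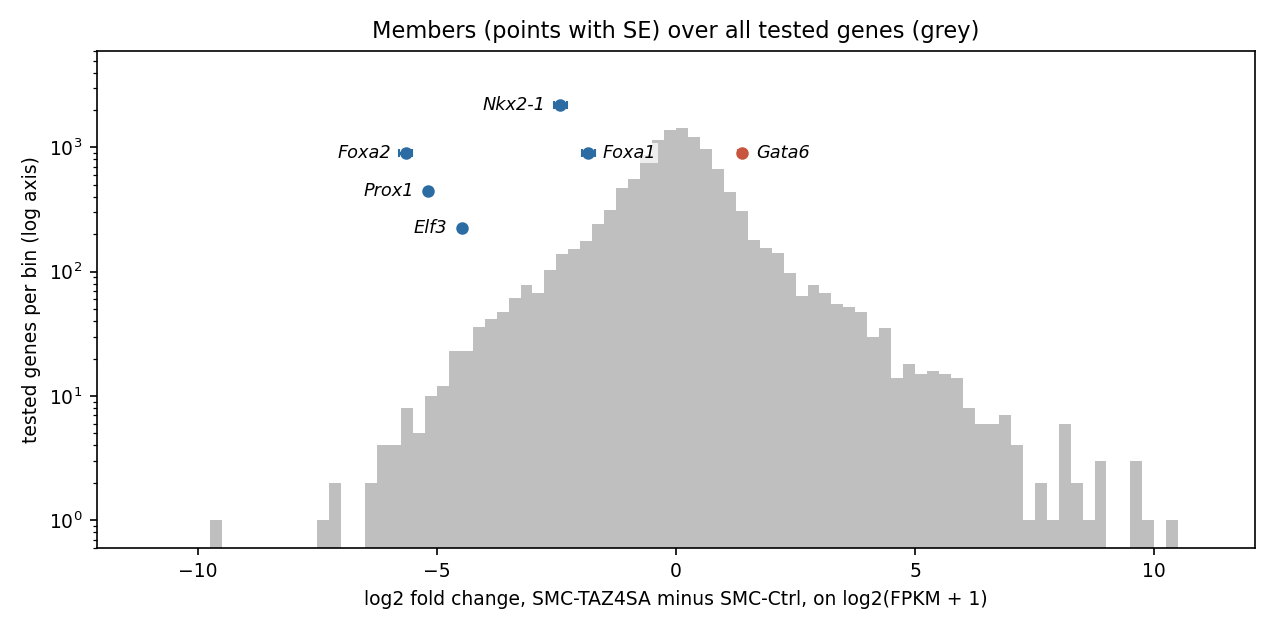
Log2 fold change (SMC-TAZ4SA minus SMC-Ctrl, on log2(FPKM + 1)) of 6 of the 9 genes, drawn as points with their SE at arbitrary heights, over a histogram of all 12141 tested genes (log axis). Foxa2, Prox1 and Elf3 lie in the far negative tail, Nkx2-1 and Foxa1 nearer to the middle, and Gata6 is positive.

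The order of the levels differed between the groups. In SMC-Ctrl it ran Foxa2, Nkx2-1, Elf3, Foxa1, Prox1, Scgb1a1, Gata6, Foxa3 and Spdef. The ranges of Foxa2 and Nkx2-1 overlapped across libraries, as did those of Foxa1 with Prox1 and of Foxa3 with Spdef. Within each control library, however, Foxa2 was above Nkx2-1 and Foxa1 above Prox1, whereas Foxa3 and Spdef changed places. In SMC-TAZ4SA the order ran Nkx2-1, Foxa1, Gata6, Foxa2 and Elf3, followed by Prox1, Spdef, Foxa3 and Scgb1a1 at or near 0, and Foxa1 and Gata6 overlapped. Of the 6 tested genes with a value above 0 in every library, 5 were lowest in SMC-Ctrl replicate 3 and 5 highest in SMC-Ctrl replicate 2. In SMC-TAZ4SA, 5 were lowest in replicate 1 and 6 highest in replicate 2, so part of the spread within a group was shared by these genes. How many of all tested genes had the same order was not counted, so it may not be particular to them. Left out in turn, no library changed a call of any of the 7 tested genes.

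By Pearson's r of log2(FPKM + 1) over the 6 libraries, the genes with the pattern most like that of Nkx2-1 were Atp13a2, a lysosomal ATPase gene (r = 0.9998), Rasip1, a gene of a Ras-interacting protein (0.9997), and Pou6f1, a POU homeodomain factor gene (0.9997). The levels went from 10.8 ± 0.849 to 5.07 ± 0.287 FPKM for Atp13a2, from 4.41 ± 0.636 to 0.350 ± 0.102 FPKM for Rasip1 and from 4.79 ± 0.306 to 2.19 ± 0.119 FPKM for Pou6f1 (SD, n = 3). The 6 libraries form a pair of groups and share their depth within a library, and 3409 tested genes had an r above 0.95. Among the 9 genes, r with Nkx2-1 was 0.991 to 0.996 for the 5 others that fell and −0.97 for Gata6.

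Other transcription factors of lung epithelium fell in part and rose in part. Of 19 listed, 18 were tested, of which 11 were lower, 5 higher and 2 not called. Of all tested genes 80.3% were called, 39.7% lower and 40.7% higher. The median log2 fold change was −0.89 in the list and 0.02 over all tested genes. Id2, an inhibitor of bHLH factors at the tips of the developing airways, fell from 182.6, 176.5 and 197.5 FPKM to 2.62, 1.29 and 1.86 FPKM (log2 fold change −6.02, adjusted p = 5.19e-09 by limma). Myb, a factor of multiciliated progenitors, fell from 28.6 ± 0.502 to 1.33 ± 0.221 FPKM. The grainyhead genes Grhl1 and Grhl2, which keep epithelial identity, fell as well, with log2 fold changes of −2.14 and −2.82, and so did Cebpa and Klf5, factors of alveolar and airway epithelium, with −2.31 and −1.70.

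Of the 5 factors that rose, Etv4 and Etv5, ETS genes that respond to FGF signals, went to 14.9 ± 1.80 and 10.3 ± 0.126 FPKM from 0.0224 ± 0.0102 and 0.132 ± 0.00975 FPKM (SD, n = 3). Sox9, a distal tip factor, rose from 0.194, 0.183 and 0.232 FPKM to 13.7, 17.7 and 17.7 FPKM (log2 fold change 3.84, adjusted p = 6.38e-09 by limma). These 3 genes passed the filter through SMC-TAZ4SA only. The smaller rises were those of Irx1, an Iroquois homeobox gene, from 2.605 ± 0.0974 to 7.99 ± 1.94 FPKM, and of Foxp1, a forkhead repressor, from 26.6 ± 1.40 to 39.7 ± 0.256 FPKM. Their relatives in the list were called lower, with log2 fold changes of −0.85 (Irx2), −0.83 (Irx3), −1.33 (Irx5), −1.11 (Foxp2) and −0.93 (Foxp4). Sox2, the factor of proximal airways, was at 4.11 ± 0.424 and 5.01 ± 0.722 FPKM, which missed the threshold (log2 fold change 0.23, adjusted p = 0.0697 by limma), but it passed as higher without SMC-TAZ4SA replicate 1 (0.33, adjusted p = 0.0067). Foxj1, the factor of motile cilia, was at 1.14 ± 0.126 and 0.987 ± 0.206 FPKM, also short of it (−0.11, adjusted p = 0.258), but it passed as lower with equal library totals (−0.23, adjusted p = 0.0291). Trp63, the basal cell factor, stayed at or below 0.0592 FPKM.

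**Figure D4:**
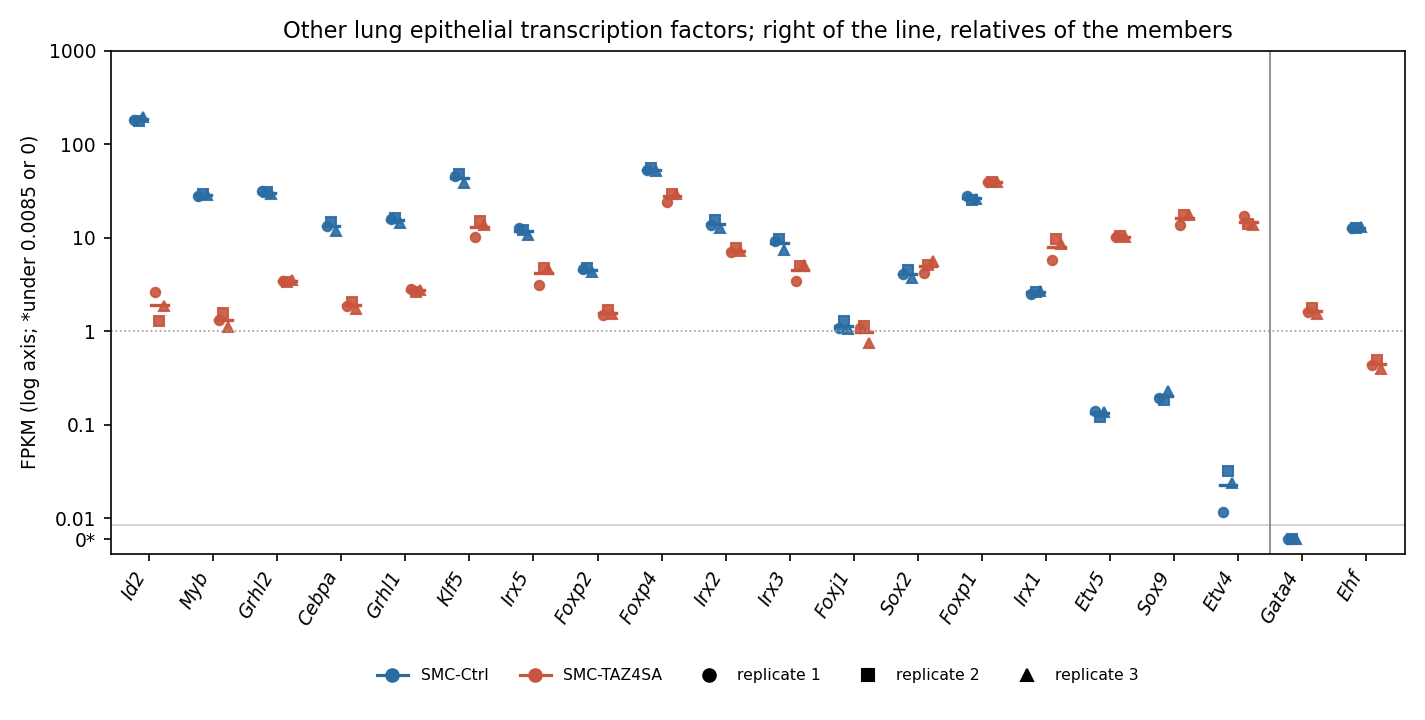
FPKM (log axis) in each library of the 18 tested lung epithelial transcription factor genes, ordered by log2 fold change, and right of the line of Gata4 and Ehf, with bars at group means (n = 3) and Gata4 values at or near 0 drawn at the bottom. The left end falls (Id2, Myb, Grhl2) and Etv5, Sox9 and Etv4 rise from below 1 FPKM.

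Surfactant genes were scarce. Of 10 surfactant and other alveolar type 2 genes, 9 were in the table and 1 was tested. This was Abca3, the lipid transporter of lamellar bodies, which fell from 12.7 ± 0.847 to 4.19 ± 0.334 FPKM (log2 fold change −1.39, adjusted p = 6.27e-07 by limma). Sftpc was at 1.83, 0.994 and 0.986 FPKM in SMC-Ctrl and at 0 with TAZ4SA, Sftpa1 was listed at 0 in all libraries, and Sftpb reached no more than 0.0421 FPKM. The controls thus held high Nkx2-1 and little or no surfactant protein transcript. Of 6 alveolar type 1 genes 5 were tested, of which 4 rose and 1 fell (median log2 fold change 1.17), against 40.7% of all tested genes higher. Aqp5 and Pdpn passed the filter through SMC-TAZ4SA only and could not have been called lower. Aqp5, a water channel, rose from 0.153, 0.282 and 0.138 FPKM to 11.02, 8.88 and 8.58 FPKM, Ager, a pattern receptor of these cells, rose from 1.21 ± 0.0558 to 3.99 ± 0.756 FPKM, and Rtkn2, of the same list, fell from 4.70 ± 0.226 to 2.50 ± 0.0731 FPKM. The summed levels of this list were 7.27 to 7.38 FPKM in SMC-Ctrl and 24.2 to 29.6 FPKM in SMC-TAZ4SA.

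Mucus cell genes, the programme of SPDEF, were mostly below the filter. Of 10 listed, 2 were tested and 8 never exceeded 0.221 FPKM. Creb3l1, a factor of the secretory pathway, rose from 0.386 ± 0.0896 to 36.8 ± 1.64 FPKM. Clca1 fell from 13.1 ± 0.223 to 1.01 ± 0.214 FPKM, but in the older symbols of this table the mucus cell gene of the family is Clca3, which was at or below 0.0489 FPKM. Of 10 ciliated cell genes 6 were tested and 4 called lower, 1 higher and 1 neither (median log2 fold change −1.22), against 39.7% of all tested genes lower. Of the 4 called lower, 3 passed the filter through SMC-Ctrl only and could not have been called higher. Ccno, a cyclin-like gene of centriole amplification, fell from 13.1 ± 1.62 to 0.174 ± 0.0167 FPKM and the cilia factor Rfx3 from 16.1 ± 1.05 to 1.85 ± 0.178 FPKM, while Tppp3 rose from 2.15 ± 0.0962 to 3.73 ± 0.714 FPKM. Of 7 basal cell genes 1 was tested, Krt14, a keratin, which rose from 0.0173 ± 0.00101 to 64.7 ± 8.83 FPKM, while Krt5, with which it pairs in basal cells, was at or below 0.0258 FPKM. Creb3l1 and Krt14 passed the filter through SMC-TAZ4SA only.

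Factors of other endoderm organs were measured because FOXA and GATA factors act there too. Of 13 listed, 3 were tested. Cdx2, the intestinal homeodomain factor, stood at 21.7, 24.6 and 21.1 FPKM in SMC-Ctrl and at 0.0665, 0.0454 and 0.0358 FPKM in SMC-TAZ4SA (log2 fold change −4.48, adjusted p = 5.7e-10 by limma), and Onecut2, of liver and neuronal cells, fell from 10.6 ± 1.14 to 2.92 ± 0.56 FPKM, whereas Gata4 rose as described. Hnf4a, Hnf4g and Sox17 were listed at 0 in all libraries. Of 12 liver and gut products 1 was tested, the microvillus gene Vil1, which fell from 3.25 ± 0.14 to 0.0335 ± 0.0312 FPKM. Cdx2 and Vil1 passed the filter through SMC-Ctrl only. Of 7 thyroid genes 1 was tested, Hhex, at 1.56 ± 0.23 and 1.13 ± 0.198 FPKM (−0.27, adjusted p = 0.025 by limma), and this call was lost without SMC-Ctrl replicate 1 (−0.26, adjusted p = 0.0661) or 2 (−0.21, 0.0909) and without SMC-TAZ4SA replicate 2 (−0.22, 0.0806). Thyroglobulin (Tg) was listed at 0 in SMC-Ctrl and at 0.702, 0.811 and 0.578 FPKM in SMC-TAZ4SA. Nkx2-5, the cardiac relative of Nkx2-1, was at 2.29 ± 0.931 and 1.37 ± 0.816 FPKM and missed the threshold (−0.49, adjusted p = 0.136), but it passed as lower without SMC-Ctrl replicate 3 (−0.72, 0.0495) or SMC-TAZ4SA replicate 2 (−0.75, 0.0224).

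**Figure D5:**
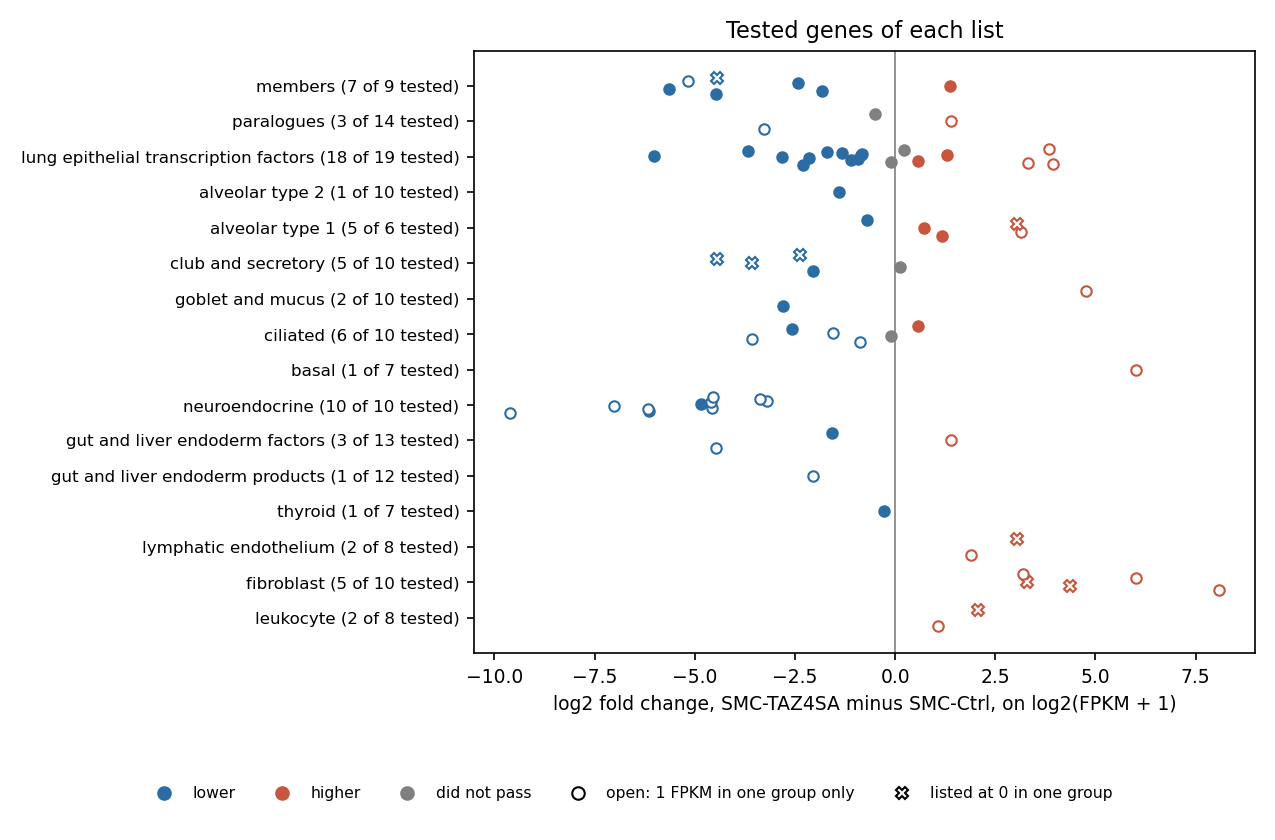
Log2 fold change (SMC-TAZ4SA minus SMC-Ctrl, on log2(FPKM + 1)) of every tested gene in each list, coloured by call, with open symbols where 1 FPKM was reached in a single group and crosses where a gene was listed at 0 in a group, whose place depends on the added 1 FPKM. Neuroendocrine genes and 4 of the 5 tested club cell genes lie to the left, with Cbr2 of the club list just right of 0. Fibroblast genes and Krt14 of the basal list lie to the right.

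Markers of several cell types moved together with the 9 genes. All 10 neuroendocrine markers fell, against 39.7% of all tested genes called lower. Of the 10, 8 passed the filter through SMC-Ctrl only and could not have been called higher. Ddc, an enzyme of amine synthesis, fell from 183.7 ± 6.89 to 0.423 ± 0.149 FPKM. All 5 tested of 10 fibroblast markers rose, all through SMC-TAZ4SA only, with a summed level of 0.566 to 0.718 FPKM in SMC-Ctrl and of 348 to 398 FPKM in SMC-TAZ4SA. Col1a1 and Pdgfrb reached 276 ± 24.2 and 67.1 ± 4.83 FPKM, while the defining fibroblast genes Dcn and Lum were at or below 0.0222 FPKM in SMC-TAZ4SA and Tcf21 was listed at 0. The leukocyte markers (7 of 8 under the listed symbols) summed to 0.118 to 0.170 FPKM in SMC-Ctrl and to 4.26 to 4.86 FPKM in SMC-TAZ4SA. Of these, 2 were tested and called higher, both through SMC-TAZ4SA only, so they could not have been called lower. Csf1r was listed at 0 in SMC-Ctrl and at 3.19 ± 0.21 FPKM in SMC-TAZ4SA. There Cd14 was at 1.38 ± 0.126 FPKM, while Ptprc was at or below 0.0395 FPKM. Adgre1, found under its older symbol Emr1, was at or below 0.0188 FPKM in every library. In bulk RNA, fewer cells of a type and less RNA per cell cannot be told apart, and the part of cell composition in the changes of the 9 genes was not tested.

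The calls of the 7 tested genes did not depend on how libraries were scaled. With each library at the same FPKM total the median change over the 12141 genes moved from 0.02 to −0.18, and 3984 genes were called higher and 5883 lower, against 4939 and 4815 as deposited, so that 40.4% in place of 50.6% of the calls were higher. On that scale the log2 fold change was −2.64 for Nkx2-1, −2.04 for Foxa1, −5.84 for Foxa2 and 1.18 for Gata6, each on the same side of the threshold as before.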

How the data were processed

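Total RNA of 6 libraries was sequenced as 150 bp read pairs, and per the labels STAR 2.6 and mm10 were used. The authors deposited FPKM values, 1 column a library. For the quantifier, annotation and strand setting, the sources used here name none. Since the values are not counts, limma 3.58.1 (R 4.3.3) was fitted on log2(FPKM + 1), with group as the only term, a mean-variance trend, 2-sided, over the 12141 genes with at least 1 FPKM in 3 or more libraries. Fold changes on this scale understate those of low genes. Of 23361 symbols, 254 on several lines were left out. The fit was checked on simulated data with independent noise and 200 changed genes. Far more genes were called here, so that check does not cover data like these.

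The 9 genes and all lists were chosen with earlier results of these data known. Text names all 9, of each list the 2 genes with the largest called rise and fall (all tested genes where fewer than 3 were), the 3 genes most like Nkx2-1 and the nearest tested neighbours. Other genes of the lists, and those found under older symbols, were named after their values were seen. A named gene and a motif of the plan are not reported here. Alternatives were the amount added (0.1, 0.01), the filter (none, 5 FPKM), 3 scalings, no trend, a replicate block, repeated symbols summed and each library left out. Positions are from GENCODE (mouse, GRCm38) and promoters from RefSeq (GRCm38.p6). Figures were drawn with matplotlib 3.10.9.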

Additional observations from a re-analysis of the deposited data

How the results depend on the processing

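Under 16 alternatives, each of the 7 tested genes kept its direction and its call. The log2 fold change ran from −2.64 to −2.31 for Nkx2-1 (adjusted p 4.8e-07 to 1.47e-05 by limma), from −2.04 to −1.67 for Foxa1, from −5.98 to −5.52 for Foxa2, from −5.0 to −4.46 for Elf3 and from 1.18 to 1.62 for Gata6. For Prox1 it ran from −9.19 to −5.12, with the largest size when 0.01 FPKM was added. Without the filter, Foxa3 (−0.07, adjusted p = 0.0529 by limma) and Spdef (−0.01, adjusted p = 0.655) were tested and did not pass. Cbr2 turned to −0.09 with equal totals, −0.03 with equal upper quartiles and −0.04 without SMC-TAZ4SA replicate 1, never past the threshold. Leaving out each library gave 9111 to 10150 called genes against 9754.

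No pairing of the samples by replicate number was seen, though with 3 libraries a group this cannot show that none existed. Deviations of same-numbered libraries correlated at −0.25, −0.0599 and −0.307, and no library correlated best with its own number. With the replicate number as a block, 9350 genes were called, the 7 genes kept their calls, Hhex lost its call (adjusted p = 0.052) and Nkx2-5 gained one (−0.49, adjusted p = 0.0299). Since FPKM keeps no read number, the precision of values near 0 (Foxa3, Spdef, and Prox1 with TAZ4SA) is unknown.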

Other observations

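The chromosomal neighbours of the 9 genes moved in both directions. By start site, the nearest tested gene on each side gave 18 neighbours, 8 higher, 6 lower and 4 not called, against 80.3% called of all tested genes, and of the 12 beside the 6 genes that fell, 6 were higher, 4 lower and 2 did not pass. Mbip, 191 kb from Nkx2-1 and a gene of a histone acetyltransferase subunit, fell from 68.7 ± 1.62 to 19.3 ± 1.76 FPKM (log2 fold change −1.78, adjusted p = 1.11e-07 by limma, lower in 3 of 3 libraries), while Pax9, a paired box factor gene 155 kb to the other side, was at 1.72 ± 0.039 and 1.58 ± 0.265 FPKM, short of the threshold (−0.08, adjusted p = 0.359). Beside Foxa2, the thrombomodulin gene Thbd (361 kb) was listed at 0 in SMC-Ctrl and at 4.72 ± 0.387 FPKM in SMC-TAZ4SA, and the exonuclease gene Xrn2 rose by 1.22 on the log2 scale. Beside Scgb1a1, Ahnak (98.7 kb), which encodes a giant scaffold protein, rose from 0.657 ± 0.0567 to 41.2 ± 10.4 FPKM, and Asrgl1 (47.7 kb), an asparaginase gene, fell from 10.1 ± 0.498 to 2.19 ± 0.13 FPKM. Sympk, whose start lies 0.839 kb from that of the nearly silent Foxa3, was at 47.0 ± 3.12 and 42.2 ± 1.17 FPKM, short of the threshold (−0.15, adjusted p = 0.0684). Mib1, beside Gata6, was at 20.7 ± 1.25 and 20.6 ± 7.56 FPKM, also short of it (−0.08, adjusted p = 0.776), while Rbbp8 on its other side fell (−0.21). The other neighbours had log2 fold changes of 0.57 (Mipol1) and 2.69 (Sec23a) beside Foxa1, −0.41 (Irf2bp1) beside Foxa3, and 0.06 (Smyd2, adjusted p = 0.64) and −0.28 (Rps6kc1) beside Prox1. They were 0.35 (Arl8a) and −0.6 (Rnpep) beside Elf3 and 0.48 (Rps10) and 0.14 (D17Wsu92e) beside Spdef. The calls of Rps10 (adjusted p = 0.0493 by limma) and D17Wsu92e (0.0468) only just passed the threshold.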
